A study of Mus musculus with 11 samples.

Results

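Foxp3 peaks that carried strong Ets1 in both cell types but no strong Elf1 in either made up 310 of the 2886 Foxp3 peaks (10.7%, exact Clopper-Pearson 95% interval 9.63 to 11.9). Foxp3 is the forkhead transcription factor that defines regulatory T (Treg) cells, and its peaks were mapped by chromatin immunoprecipitation and sequencing. A peak was a member when its midpoint lay within 300 bp of one of the 10000 highest-scoring Ets1 positions in Treg cells and of one in Foxp3-negative CD4 T cells (CD4 below), and of none of the 10000 highest Elf1 positions in either. The members were thus chosen by the measured scores of 4 libraries, and Ets1 and Elf1 values at the members are given as a description only. Cbfb, mapped in Treg cells, played no part in the choice.

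Ets1 and Elf1 both belong to the ETS family, whose DNA-binding domain reads a GGAA core. Ets1 is known for an inhibitory region beside that domain, and Runx1 bound next to it relieves the inhibition at T cell receptor enhancers. Cbfb does not touch DNA itself and stabilises Runx proteins on DNA, and Foxp3 is known to associate with Runx1 and Cbfb in Treg cells. Elf1 belongs to another branch of the family, is abundant in lymphocytes and binds many promoters.

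Cells came from lymph nodes and spleen of mice about 8 weeks old, were sorted by green fluorescent protein as a reporter of Foxp3, and were fixed with formaldehyde. Treg cells gave the Foxp3 list, which the authors made from combined replicates (3 libraries, of which 2 are technical repeats of replicate 1), and 1 library each for Ets1, Elf1 and Cbfb. The Foxp3-negative CD4 T cells gave 1 library each for Ets1 and Elf1; their Cbfb library was not analysed here. The Foxp3 antibody was a custom polyclonal one and the others were commercial. No genotype beyond the reporter is named by the labels, nor how many mice were pooled. The lists hold binding positions only, so the sorted identity of the cells could not be checked against marker genes. With 1 library per factor and cell type there was no replicate check, so no p-values are given. Intervals cover counting error only. The number of reads per library is unknown. All coordinates are those of the deposited lists, in mouse build mm9, and the peaks carry no gene names or sequences here because the gene table used is on another build.

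The members were well-bound Ets1 sites. Their best Treg Ets1 position had a median rank of 2299.5 among all positions of that library, against 2730 at the 843 Foxp3 peaks that had strong Ets1 and Elf1 in all 4 lists. In CD4 cells the order was the other way round, with a median rank of 3037.5 at members and 2119 at the 843 peaks. Fold enrichment, the maximum likelihood value that the authors deposited over a control the sources do not name, had a median of 7.46 (quartiles 4.86 and 13.2) at members in Treg and of 9.95 (6.07 and 17.2) in CD4. At the 843 peaks it was 6.88 in Treg and 11.2 in CD4. Both Ets1 positions ranked within the first 1000 at 40 members (12.9%), against 10.6% of the 1443 Foxp3 peaks with strong Ets1 in both cell types. They ranked within the first 5000 at 190 members (61.3%), against 64.1% of the 1443.

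**Figure D1:**
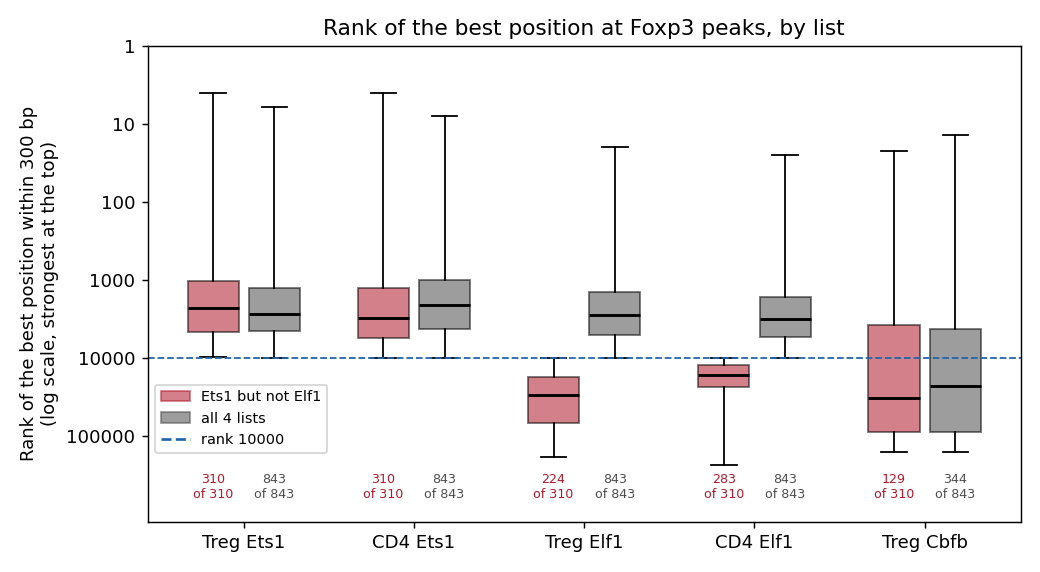
Rank of the best position within 300 bp of the Foxp3 midpoint (log scale, strongest at the top) in 5 libraries, at the 310 peaks with Ets1 but not Elf1 (red) and the 843 peaks in all 4 lists (grey). Boxes give quartiles and median, whiskers the lowest and highest rank, and the numbers below the peaks that had any position. In both Elf1 libraries every member lies beyond rank 10000, as the rule requires, while the Cbfb boxes of the 2 classes overlap.

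Ets1 sat close to the centre of the Foxp3 peak. The Treg position lay at a median of 59 bp from the midpoint and the CD4 position at 46 bp, against 61 and 45 bp at the 843 peaks in all 4 lists. Within 100 bp of the midpoint lay the Treg position of 220 members and the CD4 position of 252. The best Ets1 positions of the 2 cell types were a median of 52 bp apart, against 53 bp at the 843 peaks. They lay within 50 bp of each other at 152 of the 310 members, within 100 bp at 244 and at the same base at 4. The widest distance was 371 bp. Foxp3 intervals were 200 bp wide and some overlapped, so members were not all separate sites. The 310 members rested on 297 distinct Treg Ets1 positions and 298 distinct CD4 positions, and 9 pairs of neighbouring members overlapped.

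**Figure D2:**
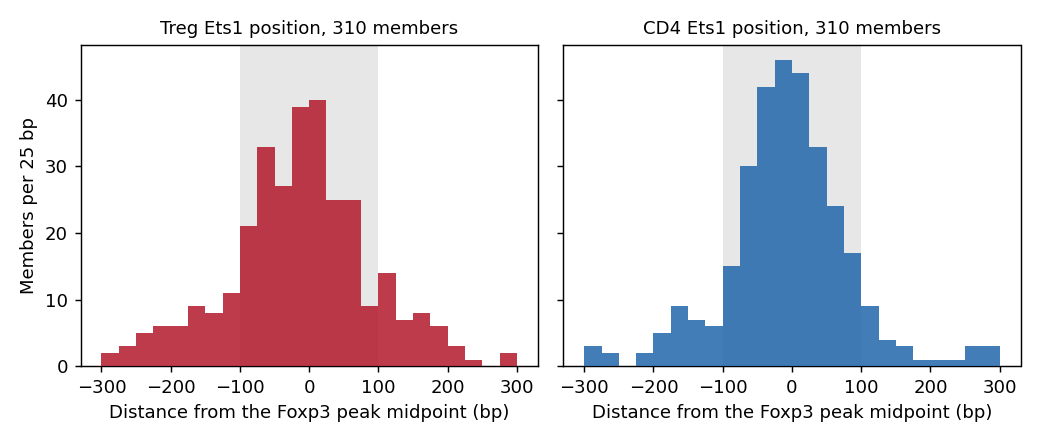
Distance in bp of the best Ets1 position from the Foxp3 midpoint at the 310 members, counted per 25 bp, for Treg (left) and CD4 (right). The grey band spans 100 bp on either side, which holds 220 Treg and 252 CD4 positions.

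Most members still had a weaker Elf1 position. Of all Foxp3 peaks, 54.4% had a top 10000 Elf1 position in Treg and 59.2% in CD4, which the rule bars from members. Lower shares at members than at all Foxp3 peaks are thus built in. The same bar holds for the 296 peaks with none of the 4 lists. An Elf1 position of some score lay within 300 bp in both cell types at 212 members (68.4%, 62.9 to 73.5), against 83.4% of all Foxp3 peaks and 43.6% of the 296 peaks with none of the 4 lists. At a false discovery rate (FDR) of at most 0.01, 210 members had one in Treg (67.7%, against 85.2% of all Foxp3 peaks), 249 had one in CD4 (80.3%, against 88.9%) and 183 had one in both (59.0%, against 79.7%). At that FDR 34 members (11.0%, 7.72 to 15.0) had none in either cell type, against 5.54% of all Foxp3 peaks, and 15 members had none of any score (4.84%, against 3.33%). The better of the 2 Elf1 ranks lay between 10001 and 15000 at 134 members and between 15001 and 20000 at 62.

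More members had an Elf1 position in CD4 than in Treg, as did Foxp3 peaks in general. The Treg list was shorter, with 187745 positions against 241359 in CD4, but held more at an FDR of at most 0.01, 157731 against 53580 in CD4, so the counts do not compare the cell types. A Treg Elf1 position of any score was present at 224 members (72.3%, against 86.7% of all Foxp3 peaks) and a CD4 one at 283 (91.3%, against 93.5%). Elf1 in Treg alone was found at 12 members and at 93 of all 2886 peaks, and Elf1 in CD4 alone at 71 members and at 289 of all peaks. These positions were weak. Where present, Elf1 had a median fold enrichment of 5.71 in Treg and 5.92 in CD4, while the 843 peaks in all 4 lists had 17.1 and 19.5. The 296 Foxp3 peaks with none of the 4 lists had 5.38 and 4.50. The rule places strong Elf1 beyond 300 bp of every member. The nearest of the 10000 highest Elf1 positions of either cell type lay at a median of 6373.5 bp from a member, within 1 kb at 70 members and within 10 kb at 184. Of the 296 peaks with none of the 4 lists, for which the same holds, 38 had one within 1 kb and 138 within 10 kb.

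Elf1 ranks ran on without a gap across the limit of 10000. Just outside it, and so members, were 3 peaks whose better Elf1 rank came from CD4. On chromosome 3 (84485740 to 84485940) that rank was 10003, with a CD4 Elf1 fold enrichment of 13.6. On chromosome 11 (33964131 to 33964331) it was 10022, with 6.07, and at 121420948 to 121421148 it was 10033, with 8.28. Peaks just inside the limit, which also had both Ets1 lists, were not members. The peak on chromosome 8 at 13676372 to 13676572 had CD4 Elf1 rank 9983 and a fold enrichment of 14.2. On chromosome 15 at 78394467 to 78394667 the rank was 9969 with 14.2, and on chromosome 9 at 43825992 to 43826192 it was 9857 with 23.7. Of the 1443 Foxp3 peaks with strong Ets1 in both cell types, 310 (21.5%) lacked Elf1 at a limit of 10000, 634 (43.9%) at 5000 and 114 (7.90%) at 20000.

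By the top 10000 lists, Cbfb was present at members about as often as at peaks that also had Elf1. The choice of members did not use Cbfb. With lists cut by false discovery rate it was less frequent at members. Their share there was 2.90% (0.353 to 10.1), against 13.3% (11.8 to 14.9) at peaks in all 4 of those lists, with intervals apart. One of the 10000 highest Treg Cbfb positions lay within 300 bp of 44 of the 310 members (14.2%, 10.5 to 18.6), against 11.1% of all Foxp3 peaks. At the 843 peaks in all 4 lists the share was 15.3% (12.9 to 17.9). The mirror class, 104 Foxp3 peaks with strong Elf1 in both cell types but no strong Ets1, had Cbfb at 3 peaks (2.88%, 0.599 to 8.20). The 296 peaks with none of the 4 lists had it at 11 (3.72%, 1.87 to 6.55). The interval of the members overlapped that of the 843 peaks and lay above those of the other 2 classes. The separation from peaks with Elf1 but not Ets1 did not hold under 4 other settings: with 20000 positions per library, by fold enrichment, with lists cut by false discovery rate, and without close Foxp3 peaks, the 2 intervals overlapped.

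**Figure D3:**
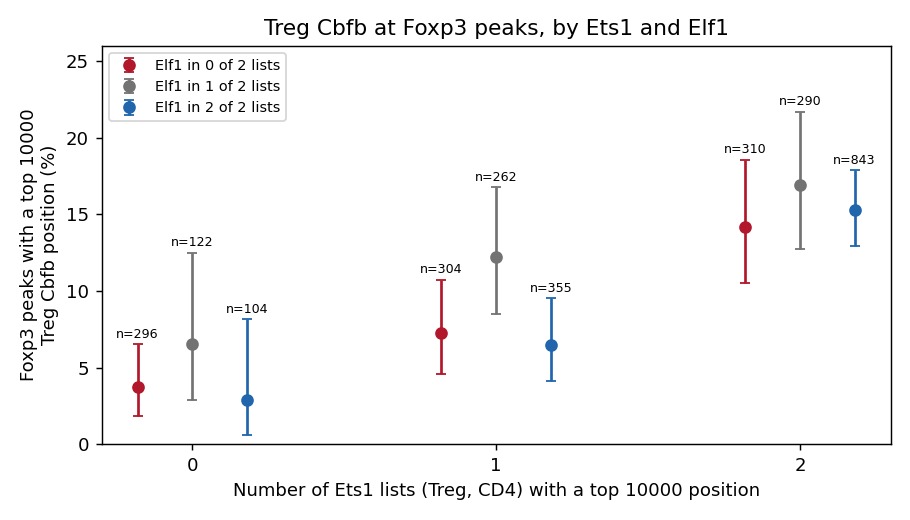
Share of Foxp3 peaks (%) with one of the 10000 highest Treg Cbfb positions, by the number of Ets1 lists (horizontal axis) and of Elf1 lists (colours) with a position. Bars are exact 95% intervals, and n is the number of peaks. The 310 members, red at 2 Ets1 lists, stand at 14.2%, beside 16.9% and 15.3% with Elf1 in 1 and 2 lists.

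Across Foxp3 peaks the Cbfb share was highest with strong Ets1 in both cell types, at each number of Elf1 lists. Among peaks with strong Ets1 in both cell types it was 14.2, 16.9 and 15.3% with Elf1 in 0, 1 and 2 lists. With Ets1 in 1 list these values were 7.24, 12.2 and 6.48%, and with Ets1 in no list 3.72, 6.56 and 2.88%. The intervals for Ets1 in 2 lists and in 1 list were apart only with Elf1 in 2 lists (12.9 to 17.9 and 4.15 to 9.56). They overlapped with Elf1 in 0 lists and in 1 list. Against Ets1 in no list they were apart at each number of Elf1 lists. The members' top Cbfb positions had a median fold enrichment of 5.23 and lay at a median of 79 bp from the Treg Ets1 position. At the 843 peaks these medians were 5.60 and 74 bp.

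Within the members, Cbfb was most frequent where Elf1 fell just short of the limit. Of the 196 members whose better Elf1 rank lay between 10001 and 20000, 34 had Cbfb (17.3%, 12.3 to 23.4). Of the other 114, with weaker or no Elf1, 10 had it (8.77%, 4.29 to 15.5), and the 2 intervals overlapped. None of the 34 members without Elf1 at an FDR of at most 0.01 had it; the exact interval runs from 0 to 10.3%, and the floor of 3 counts is 8.82%. Split by Treg Ets1 rank, these were 0 of 15 up to rank 2500 (upper limit 21.8%) and 0 of 19 beyond (17.6%), so at a given Ets1 rank they were not separated from the other members. Those 34 had lower-ranked Ets1 as well, with a median rank of 2853.5 in Treg and 4652 in CD4. A Cbfb position of any score lay at 9 of them (26.5%, 12.9 to 44.4), against 41.6% of all members and 33.6% of all Foxp3 peaks. With every position that passed an FDR of 0.01 in place of the top 10000, an alternative chosen after seeing the data, 69 peaks had Ets1 without Elf1, and 34 of them were members. Their Cbfb share was 2.90% (0.353 to 10.1), against 13.3% (11.8 to 14.9) of the 1908 peaks with Ets1 and Elf1 in all 4 of those lists and 2.13% (0.0539 to 11.3) of the 47 with Elf1 but not Ets1. That setting also admitted weaker Ets1, with 61761 positions in Treg and 42040 in CD4, so the parts of Elf1 and Ets1 in the lower share cannot be told apart.

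The Cbfb share was lower in each successive bin of Treg Ets1 rank, though the intervals of the first and last bins still overlapped slightly. Cbfb was present at 18 of the 75 members whose Treg Ets1 rank was at most 1000 (24%, 14.9 to 35.3), at 15 of 94 for ranks 1001 to 2500, at 7 of 76 for ranks 2501 to 5000 and at 4 of 65 beyond (6.15%, 1.70 to 15.0). At the 843 peaks in all 4 lists the first and last of these shares were 25% and 8.14%. Split by both measures, the shares were as follows. Of the 113 with a Treg Ets1 rank of at most 2500 and an Elf1 rank between 10001 and 20000, 28 had Cbfb (24.8%, 17.1 to 33.8), and of the 83 with a lower Ets1 rank, 6 had it (7.23%, 2.70 to 15.1). Of the 56 with an Ets1 rank of at most 2500 and weaker or no Elf1, 5 had it (8.93%, 2.96 to 19.6), and of the other 58, 5 had it (8.62%, 2.86 to 19.0). The first interval lay above that of the 83 and overlapped both of these last 2. The lower share at lower Ets1 ranks was thus seen with Elf1 between ranks 10001 and 20000. With weaker or no Elf1 the 2 shares hardly differed, within wide intervals.

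Ets1 sites without Elf1 had Cbfb more often at Foxp3 peaks than away from them. For this comparison the unit was the Ets1 site: a top 10000 Treg Ets1 position with a top 10000 CD4 Ets1 position within 300 bp. Of the 4985 such sites, 1805 had no strong Elf1 in either cell type, and 307 of these (17.0%, 15.3 to 18.8) lay at a Foxp3 peak. Sites with strong Elf1 in both cell types lay at a Foxp3 peak in 838 of 2231 cases (37.6%, 35.5 to 39.6). Among sites without Elf1, 38 of the 307 at Foxp3 peaks had Cbfb (12.4%, 8.91 to 16.6), against 58 of the 1498 away from them (3.87%, 2.95 to 4.98). For ranks 1 to 1000 of Treg Ets1 the 2 shares were 24.3% (15.1 to 35.7) and 5.30% (3.11 to 8.34). For ranks 5001 to 10000 they were 4.35% (0.906 to 12.2) and 1.93% (0.885 to 3.63). The intervals were apart for ranks 1 to 1000 and overlapped in every bin beyond. Sites with Elf1 in both cell types had Cbfb at 14.7% (12.3 to 17.3) at Foxp3 peaks and at 5.89% (4.71 to 7.25) away from them.

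**Figure D4:**
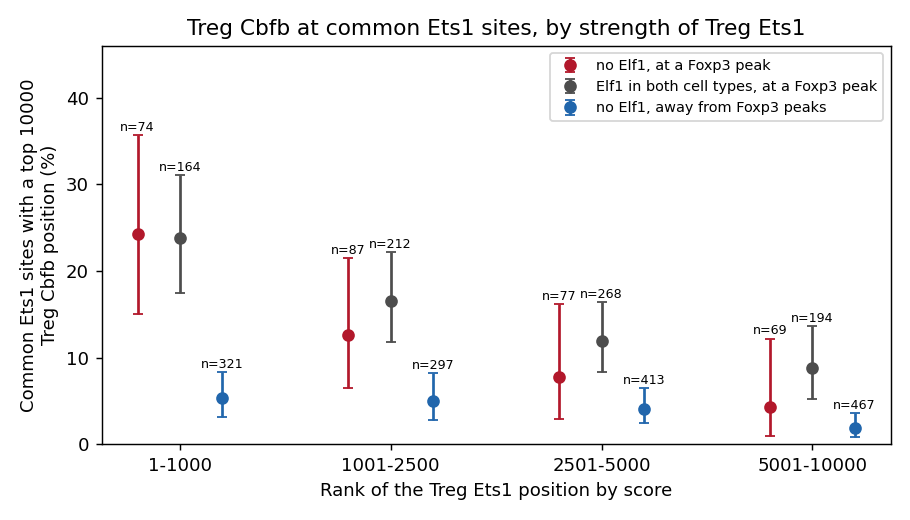
Share of Ets1 sites common to Treg and CD4 (%) with a top 10000 Treg Cbfb position, by rank of the Treg Ets1 position. Red shows sites without Elf1 at a Foxp3 peak, grey sites with Elf1 in both cell types at a Foxp3 peak and blue sites without Elf1 away from Foxp3 peaks, with exact 95% intervals. For ranks 1 to 1000 red stands at 24.3% and blue at 5.30%.

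At most members Ets1 had a lower fold enrichment in Treg than in CD4, by a smaller margin than at peaks with Elf1. The median Treg minus CD4 log2 fold enrichment was -0.35 over the 310 members (quartiles -0.79 and 0.17) and -0.64 over the 843 peaks in all 4 lists (-1.17 and -0.09). Ets1 was lower in Treg at 210 members (67.7%), against 75.4% of the 1443 Foxp3 peaks in both Ets1 lists. It was at least 2-fold lower in Treg at 65 members (21.0%), against 29.7% of the 1443, and at least 2-fold higher at 16 (5.16%), against 3.67%. These are ratios of 2 libraries of unknown depth that the rule itself used, so they describe the libraries. The same order was seen away from Foxp3 peaks, where the median was -0.42 over 1498 common Ets1 sites without Elf1 and -0.59 over 1393 with Elf1 in both cell types. When positions were ranked by fold enrichment, the rule gave 74 peaks with a median of -0.00071 and an all-4 class of 82 peaks with -0.36.

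**Figure D5:**
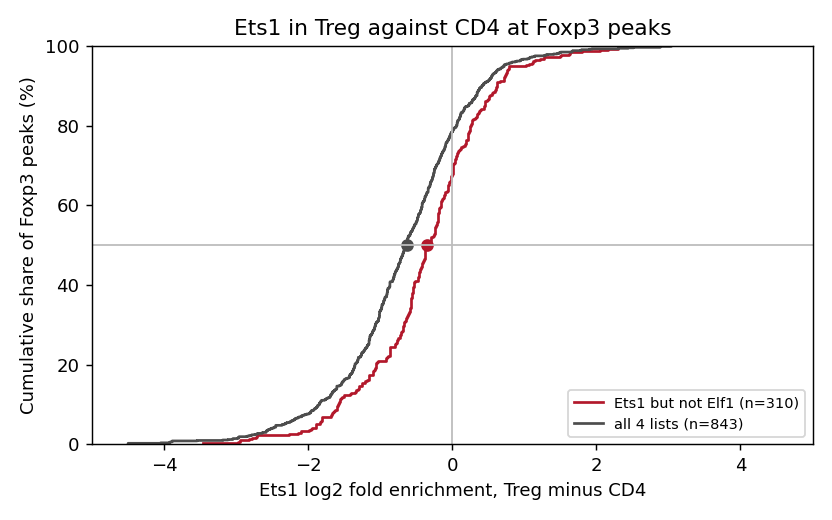
Cumulative share of Foxp3 peaks (%) by Ets1 log2 fold enrichment, Treg minus CD4, for the 310 members (red) and the 843 peaks in all 4 lists (grey); dots mark the medians. The members' curve lies to the right through its middle, with medians of -0.35 and -0.64.

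The 5 members with the lowest sum of Treg and CD4 Ets1 ranks by score lay on chromosomes 11, 12, 17 and 19. Some other members had higher fold enrichment, such as the one on chromosome 16 at 23988906 to 23989106, with 190-fold and 120-fold. The member on chromosome 11 at 87236369 to 87236569 ranked 4 in Treg Ets1 and 5 in CD4 Ets1, with fold enrichments of 43.7 and 36.2 at positions 2 bp apart. It had no Treg Elf1 position and a CD4 Elf1 position only at rank 75602 (4.75-fold), though a strong Treg Elf1 position lay 333 bp from its midpoint. A second member nearby, at 87240200 to 87240400, ranked 12 and 37, with 34.0-fold and 163-fold enrichment, and had strong Elf1 of Treg at 366 bp and of CD4 at 373 bp. Strong Elf1 at these 2 members thus lay just beyond the 300 bp of the rule.

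On chromosome 12, at 55797753 to 55797953, Ets1 ranked 5 in Treg (96.5-fold) and 4 in CD4 (99.1-fold), with CD4 Elf1 just under the limit at rank 11125 and 3.87-fold. The member on chromosome 19 at 5845447 to 5845647 ranked 9 in Treg (22.8-fold) and 7 in CD4 (29.5-fold), and its CD4 Elf1 ranked 18469. It was also among the members with the strongest Cbfb, at rank 42 and 7.84-fold. On chromosome 17, at 87846110 to 87846310, Ets1 ranked 73 (28.8-fold) and 54 (32.8-fold), and the nearest strong Elf1 lay 421306 bp away in Treg and 147690 bp away in CD4. Of the 5 it was the farthest from strong Elf1; the nearest lay within 1 kb at the members on chromosomes 11 and 12, and at 1160 bp at the one on chromosome 19.

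Only 5 members had no Elf1 position of any score within 1 kb in either cell type. Their Treg Ets1 fold enrichment was below the members' median of 7.46. By score, however, the one on chromosome 19 ranked 1465 in Treg Ets1, ahead of the members' median rank of 2299.5. The others ranked behind that median. The member on chromosome 8 at 74884228 to 74884428 had Ets1 at 7.32-fold in Treg and 15.8-fold in CD4. On chromosome 1, at 135995774 to 135995974, the values were 7.08-fold and 4.30-fold, and on chromosome 19, at 40754226 to 40754426, they were 5.99-fold and 6.07-fold. The other 2 lay on chromosome 17 at 47670814 to 47671014 (4.28-fold and 6.88-fold) and on chromosome 12 at 32853737 to 32853937 (2.44-fold and 3.64-fold). All 5 lacked a top 10000 Cbfb position, and 2 of them had a weak one, at ranks 24903 and 106396.

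Of the 5 members with the highest Cbfb scores, 4 had a better Elf1 rank between 10001 and 20000, as had 196 of all 310 members. Chromosome 16 held the highest, at 57391577 to 57391777, with Cbfb at rank 22 and 4.51-fold. There Ets1 was 4.90-fold in Treg and 7.03-fold in CD4, 1 bp apart, and Elf1 was 3.19-fold in Treg and 2.85-fold in CD4. The next, on chromosome 11 at 32482925 to 32483125, had Cbfb at rank 32 and 13.1-fold, with Ets1 at 20.3-fold and 23.1-fold and Elf1 at ranks 13125 and 13132. The chromosome 19 member described above came next. On chromosome 5, the member at 98412470 to 98412670 had Cbfb at rank 47 (14.1-fold) with Ets1 at 3.60-fold and 5.72-fold and no Treg Elf1. The other on that chromosome, at 108494566 to 108494766, had Cbfb at rank 71 (6.79-fold), Ets1 at 18.0-fold and 18.2-fold, and CD4 Elf1 at rank 10584. Fold enrichment did not follow the order of the scores among these 5.

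A few members differed widely in Ets1 between the cell types. Ets1 was higher in Treg on chromosome 1 at 87629260 to 87629460, with 45.9-fold in Treg and 8.50-fold in CD4 (log2 ratio 2.43). It was 65.9-fold and 13.4-fold on chromosome 17 at 50609826 to 50610026, and 45.9-fold and 10.2-fold on chromosome 2 at 32397612 to 32397812. In that order, their Ets1 ranks by score were 2131, 938 and 4834 in Treg and 7199, 1299 and 6181 in CD4. The first and last had the same Treg fold enrichment and the same lower bound of it, 7.71. Treg and CD4 positions lay 34, 141 and 143 bp apart. In the other direction, Ets1 was 1.43-fold in Treg and 15.8-fold in CD4 on chromosome 15 at 72992486 to 72992686 (log2 ratio -3.47). On chromosome 12 it was 1.08-fold and 8.50-fold at 85547699 to 85547899, and 6.79-fold and 52.2-fold at 103866528 to 103866728. The member with 1.08-fold enrichment in Treg ranked 2194 there by score, so score and fold enrichment disagreed at this site.

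Members lay in clusters of Foxp3 peaks about as often as other Foxp3 peaks. With neighbouring midpoints at most 10 kb apart, 130 members (41.9%, 36.4 to 47.6) lay in a cluster of 2 or more Foxp3 peaks, against 38.6% of all Foxp3 peaks and 38.7% (35.4 to 42.1) of the 843 peaks in all 4 lists. Clusters with 3 or more members numbered 2. One, on chromosome 11, held 6 Foxp3 peaks, of which the member at 52113248 to 52113448 stood apart with Ets1 at 9.19-fold in Treg and 16.8-fold in CD4. Its other 3 members, from 52127646 to 52128110, overlapped each with the next and shared their positions, with Ets1 at 6.44-fold and 22.5-fold, Cbfb at rank 264 and 4.85-fold, and CD4 Elf1 at rank 10345. The other, on chromosome 4, held 4 Foxp3 peaks. Its 2 overlapping members, from 133310216 to 133310522, shared Ets1 at 11.3-fold and 33.6-fold and Cbfb at rank 294, and another member at 133312694 to 133312894 had Ets1 at 4.76-fold and 5.70-fold. Overlapping peaks thus counted the same binding several times. Without peaks that had another Foxp3 midpoint within 600 bp, a step chosen once values were known, 264 members remained and 31 of them had Cbfb (11.7%, 8.12 to 16.3). The 711 peaks in all 4 lists that were left had it at 14.8% (12.2 to 17.6), and the 94 with Elf1 but not Ets1 at 3.19% (0.663 to 9.04).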

How the data were processed

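The submitters' processing notes name Bowtie 0.12.7 and the build mm9. The authors deposited 1 list of 2886 Foxp3 intervals without scores, made from combined replicates per the labels, and 5 lists of single-base positions. Per the file headers, each position carries a score, an E-value, an FDR (that is, a q-value), and the fold enrichment ratio in 2 forms, a maximum likelihood value and a lower bound. The caller, its control and its thresholds are not given in the sources used here.

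Positions were ranked by the deposited score, ties in file order. At each Foxp3 midpoint the best-ranked position within 300 bp was taken, and peaks were classed by the 10000 highest positions of 4 libraries. Shares have exact Clopper-Pearson 95% intervals, and medians of the log2 ratio have binomial (order statistic) 95% intervals. The functions were tested on simulated data. Members, classes, measures and the rule for named peaks were chosen with earlier results of these data known. Named peaks were the 5 with the lowest sum of Ets1 ranks, those without Elf1 within 1 kb, the 5 with the highest Cbfb score, 3 on either side of the Elf1 limit, 3 at each end of the Treg to CD4 ratio, and clusters with 3 or more members. Splits by sub-limit Elf1, by Ets1 rank and by nearness of Foxp3 peaks were added after the data had been seen. Alternatives changed list length, ranking, distance, ties and FDR. Python 3.11.15, numpy 2.4.6, pandas 2.3.3, scipy 1.17.1 and matplotlib 3.10.9 were used.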

Additional observations from a re-analysis of the deposited data

How the results depend on the processing

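Of 82 values under 15 other settings, 54 stayed close to those reported. A distance of 200 bp from the interval, the same rule by construction, is not counted. Keeping or dropping all ties left the same 310 members. Those settings are counted, although they could hardly move a value. Counts and shares cannot change sign. Only the median Treg minus CD4 log2 ratios of Ets1, at members and at the peaks in all 4 lists, could, and neither did. Close refers to the size of a value and not to which peaks were members: the 379 members with 5000 positions counted as close. Members numbered 379 with 5000 positions per library (190 of them members here), 164 with 20000 (114), 74 ranked by fold enrichment (35) and 69 at an FDR of at most 0.01 (34), and between 293 and 310 with distances of 150 and 500 bp and with ties all kept or dropped. The cause of these shifts was not tested. The members' Cbfb share was 8.54% with 20000 positions, 18.9% by fold enrichment, 2.90% with FDR lists and 36.8% with all Cbfb positions at an FDR of at most 0.01. That last list gave 33.9% at the peaks in all 4 lists and 16.3% at those with Elf1 but not Ets1, and ranking by fold enrichment gave 18.3% at the peaks in all 4 lists and 7.04% at those with Elf1 but not Ets1. With 20000 positions the peaks in all 4 lists had 14.1% and those with Elf1 but not Ets1 2.94% (0.358 to 10.2, against 4.75 to 13.9 at members). With FDR lists these classes had 13.3% and 2.13% (0.0539 to 11.3, against 0.353 to 10.1 at members). Intervals of members and peaks with Elf1 but not Ets1 also overlapped by fold enrichment (10.7 to 29.7 and 3.99 to 11.3) and without close Foxp3 peaks (8.12 to 16.3 and 0.663 to 9.04). With 5000 positions the shares were 17.9% at members and 3.88% at peaks with Elf1 but not Ets1.

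Members with Elf1 of any score in both cell types were 84.4% with 5000 positions, 47.0% with 20000 and 79.7% by fold enrichment. With FDR lists, which barred only Elf1 at an FDR of at most 0.01, the share was 0% of 69 (0 to 5.21). When Elf1 had to pass an FDR of 0.01, the share of the 310 members was 59.0%. The share in clusters was 50% by fold enrichment, 47.8% with FDR lists, 33.2% and 50.3% with gaps of 5000 and 20000 bp, and 31.8% without close Foxp3 peaks. The Treg minus CD4 log2 ratio of Ets1 at members was -0.52 with 5000 positions, -0.20 with FDR lists, -0.00071 by fold enrichment, -0.52 by the lower bound and -0.93 by score. At the peaks in all 4 lists it was -0.66 with 5000 positions, -0.36 by fold enrichment, -0.88 by the lower bound and -1.13 by score. Each was below that of the members, but with 5000 positions and by fold enrichment the intervals of the 2 medians overlapped. The shares of members near gene starts and with motifs, both planned, were not run, because no mm9 annotation or genome was used. No library could be left out, since each group had 1. No paired analysis was possible because the libraries compared carry no replicate numbers and the replicated Foxp3 samples were deposited as 1 list.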

Other observations

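As a share of the Foxp3 peaks with strong Ets1 in both cell types, they ranged from 8 of 97 on chromosome 1 (8.25%, 3.63 to 15.6) to 25 of 69 on chromosome 12 (36.2%, 24.99 to 48.7), against 21.5% in all. These 2 were the extremes of the numbered chromosomes, named after the values had been seen, and the intervals of all other chromosomes with such peaks held 21.5%, so no uneven spread is claimed from them. Away from Foxp3 peaks, common Ets1 sites lacked strong Elf1 in 44.0% of cases (37.6 to 50.5) on chromosome 1 and in 41.0% (32.9 to 49.5) on chromosome 12, against 42.3% in all, and both intervals held that value. Chromosome X held 3 members among 6 such Foxp3 peaks.

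Foxp3 peaks near a member were members about as often as those near a peak in all 4 lists, within overlapping intervals. Leaving out neighbours within 600 bp, which can share positions, 102 members had another Foxp3 peak within 10 kb. The nearest of these was itself a member in 15 cases (14.7%, 8.47 to 23.1), against 25 of 227 (11.0%, 7.26 to 15.8) for the peaks in all 4 lists. It had strong Ets1 in both cell types in 47 cases (46.1%, 36.2 to 56.2), against 119 of 227 (52.4%, 45.7 to 59.1). A top 10000 Cbfb position lay at 4 of the 102 neighbours (3.92%, 1.08 to 9.74), against 19 of 227 (8.37%, 5.11 to 12.8).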
